A study of Drosophila melanogaster with 15 samples.

Results

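Of the 7035 *Drosophila* genes that the transcript annotation of this study carries under a bare CG number, 56 had higher mRNA levels after hypoxia in both control flies and *foxo* mutants. A CG number is the systematic name that a fly gene receives before it is given a descriptive one. A gene was a member when the log2 of its mean abundance plus 1 was larger in hypoxia than in normoxia by 1 or more in each genotype, and when its lowest hypoxia library lay above its highest normoxia library in each genotype. The rule left out 6 names beforehand, of which 0 would have met these thresholds. The abundance is in TPM, the share of a transcript among all transcripts, corrected for length and scaled to one common total, and it was summed over the transcripts of a gene. Whole-body RNA was measured in 15 libraries of mated adult females aged about 7 days, with 5 pooled flies in each. The controls were *w1118* flies in normoxia (3 libraries, numbered 2 to 4) or after 16 h at 1% oxygen (4 libraries). The mutants carried *foxo*Δ94, a null allele of the FOXO transcription factor whose stock is kept over a balancer chromosome, and gave 4 libraries in normoxia and 4 after the same exposure.

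FOXO is a forkhead transcription factor that is held in the cytoplasm by insulin signaling and enters the nucleus under stress. Flies survive long periods of low oxygen by lowering energy use and switching on protective genes. The innate immune system of the fly answers microbes through the Toll and Imd pathways, which cause the fat body to secrete short antimicrobial peptides into the hemolymph, and some of these peptide genes are among the members described here.

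The *foxo* transcript stood between 18.3 and 39.9 TPM in the *w1118* libraries and at most at 0.257 TPM in the mutant libraries. Library totals lay between 998679 and 999016 TPM, and since TPM keep no read number the depth of each library is unknown. Summed TPM of 11 eggshell genes lay between 28407 and 38744 in *w1118* normoxia and between 6370 and 9278 in *w1118* hypoxia, and between 9711 and 26261 and between 4190 and 13464 in the mutants, where normoxia and hypoxia overlapped. Those of 5 fat body genes (*Yp1*, *Yp2*, *Yp3*, *Lsp2* and *apolpp*) lay between 14805 and 27414 and between 2286 and 4846 in *w1118*. In the mutants they lay between 18582 and 22586 and between 8490 and 11856. Those of 6 midgut enzyme genes were lower in every hypoxia library of each genotype, at 1150 to 1872 TPM in *w1118* and 3135 to 4884 TPM in the mutants, against at least 7984 and 10477 TPM in normoxia. Sums of 6 muscle genes were also lower in every hypoxia library of each genotype. Sums of 5 photoreceptor genes were not, at 1234 to 1302 TPM in *w1118* normoxia and 1312 to 1723 TPM in *w1118* hypoxia, and overlapped in the mutants. Sums of 6 germline genes overlapped in each genotype, and those of 5 neuron genes overlapped in *w1118* and were lower in mutant hypoxia. Of 5 hemocyte genes, 2 were under 1 TPM in every library, and all 6 male genes found were under 1 TPM in every library. In whole flies, fewer cells of a type and less RNA per cell cannot be told apart, and the part of these shifts in the levels below was not tested.

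The rule chose the members by their change in hypoxia, and they were thus chosen by the very values compared here, so these changes are given as a description and without a test. In *w1118* the log2 change ran from 1.05 to 3.85 with a median of 1.51, and in the mutants from 1.01 to 3.78 with a median of 1.75. Across the 10288 genes whose mean reached 1 TPM in at least some group, the median change was 0.25 in *w1118* and -0.003 in the mutants. All 56 members passed this filter, which their hypoxia levels alone suffice for. The thresholds were met by 0.796% of CG-numbered genes, by 1.58% of the 10082 genes with another name (159 genes), and by 1.26% of all 17117 genes. The mirrored thresholds for a lower level in hypoxia were met by 222 CG-numbered genes. Just inside the threshold, the smaller of the changes was 1.01 for CG14340, 1.02 for CG2017 and 1.02 for CG14182. Just outside it was 0.99 for CG42240, 0.97 for CG4456 and 0.96 for CG7101.

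**Figure D1:**
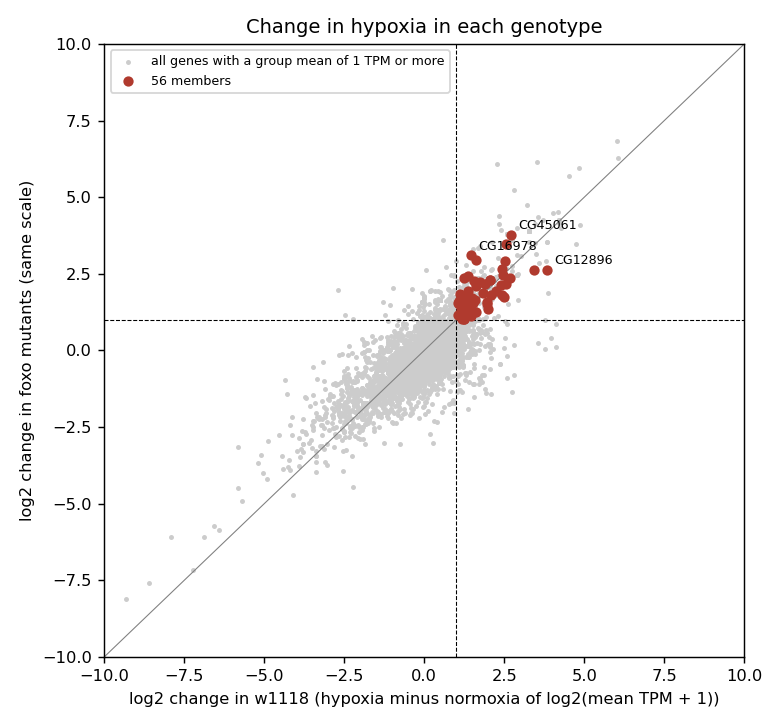
Log2 change in hypoxia of every gene with a group mean of 1 TPM or more in *w1118* (horizontal axis) against *foxo* mutants (vertical axis), both as the difference of log2(mean TPM + 1), with the 56 members in red and the threshold of 1 as dashed lines. The members occupy the upper right corner by construction, with CG12896 the farthest to the right (3.85) and CG45061 the highest (3.78).

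The name of the set describes the annotation of the study more than present knowledge. The current reference gives 12 of the 56 a descriptive symbol, and all 56 encode proteins. For 26 of the 56 a role that is known or can be read from the protein family is given below, and for the other 30 none is given here. CG2217 and CG42740 share one locus on chromosome arm 3R (dm6, 30418767 to 30422971, minus strand) and have identical values in every library, so the 56 names stand for 55 separate sets of values. Counting that pair once, the members together took 2484 ± 215 TPM (SD) over the 3 normoxia libraries of *w1118* and 9475 ± 1516 TPM over its 4 hypoxia libraries. In the mutants they took 2383 ± 502 TPM and 10222 ± 1923 TPM (n = 4 each), or 1.02% of the total TPM in hypoxia.

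**Figure D2:**
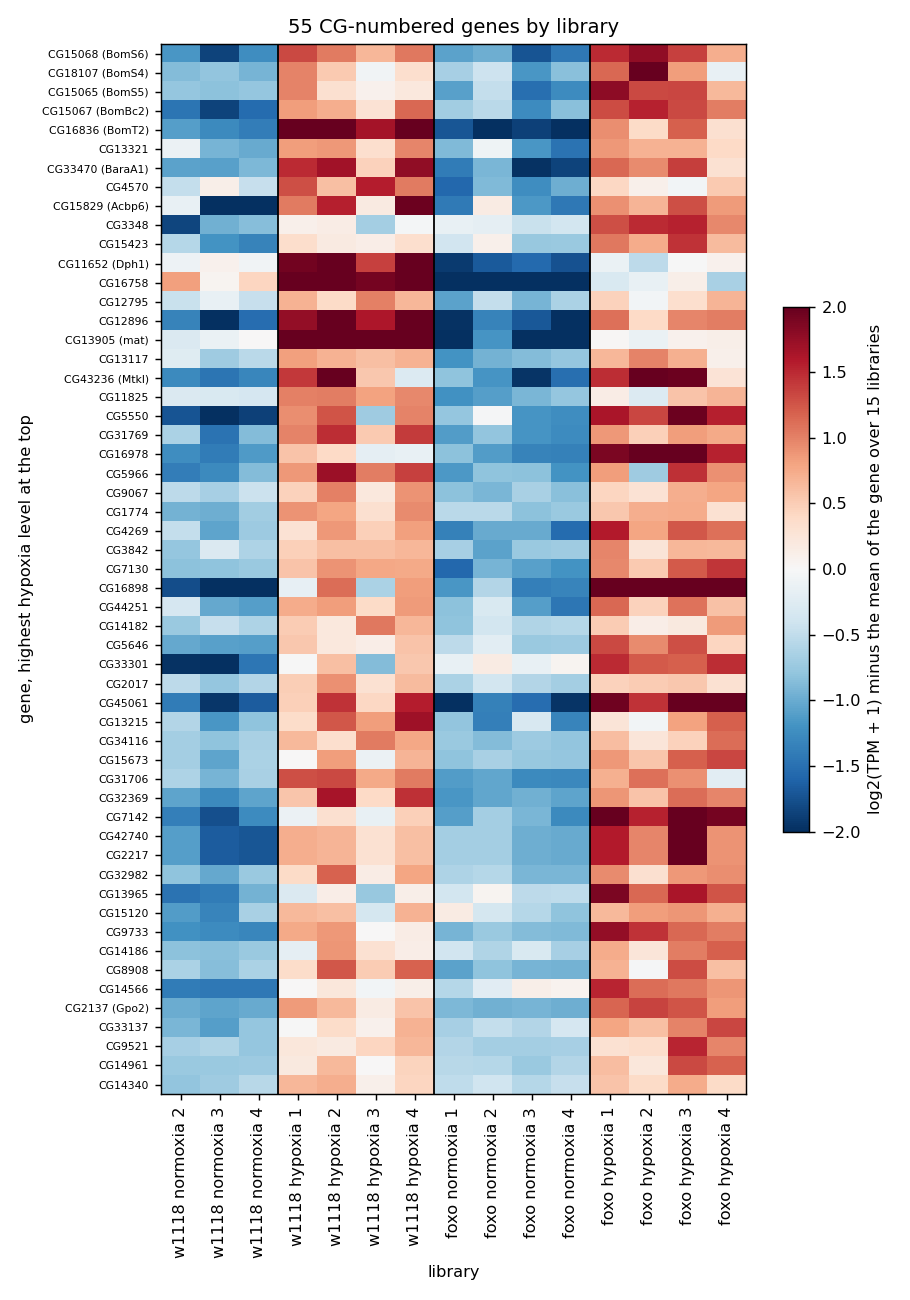
Level of 55 of the 56 members in the 15 libraries, as log2(TPM + 1) minus the mean of each gene over all libraries, from blue (lower) to red (higher), with the color scale ending at 2 in each direction. Current symbols stand in brackets, and within each genotype the row of each gene is redder in hypoxia than in normoxia. *w1118* hypoxia 3 is paler than the other libraries of its group, being the lowest for 40 of 55 members.

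Immune peptides led the set in abundance. BomS6 (CG15068), BomS4 (CG18107), BomS5 (CG15065), BomBc2 (CG15067) and BomT2 (CG16836) belong to the Bomanins, short secreted peptides that are induced through Toll and protect flies against fungi and some bacteria. They were the 5 most abundant members by the mean over all hypoxia libraries, although in mutant hypoxia alone BomT2 stood below CG13321, CG3348, BaraA1 and CG15423. BaraA1 (CG33470) encodes a precursor cut into several antifungal peptides, and Mtkl (CG43236) is named for its likeness to the antimicrobial peptide metchnikowin. The 7 peptide genes together summed to 1221 ± 110 TPM (SD) in the 3 normoxia libraries of *w1118* and to 5361 ± 1083 TPM in its 4 hypoxia libraries, and at 1280 ± 292 and 6641 ± 1888 TPM in the mutants (n = 4 each). They made up 49.2% ± 2.55 (SD) of the summed level of the members in *w1118* normoxia and 56.3% ± 3.70 in *w1118* hypoxia. In the mutants they made up 53.6% ± 3.56 in normoxia and 64.0% ± 7.43 in hypoxia.

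BomS6 stood at 454, 283 and 434 TPM in *w1118* normoxia and at 2561, 2094, 1628 and 2117 TPM in *w1118* hypoxia. In the mutants it stood at 487, 517, 310 and 381 TPM in normoxia and at 2889, 3509, 2639 and 1701 TPM in hypoxia. Hypoxia levels were thus 5.38 and 6.34 times the normoxia means, and the genotypes overlapped in each condition. BomT2 had the largest change of the family in *w1118*. It went from 74.7, 66.6 and 61.6 TPM to 668, 674, 515 and 1093 TPM, 10.9 times the normoxia mean. The mutants went from 49.1, 40.1, 43.8 and 40.1 TPM to 309, 213, 371 and 203 TPM, 6.33 times the mean. Every mutant library lay below every *w1118* library of the same condition for this gene.

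BomS5 showed the opposite order. In *w1118* it went from 267, 258 and 268 TPM to 913, 575, 487 and 527 TPM, and in the mutants from 215, 328, 160 and 191 TPM to 1585, 1141, 1158 and 714 TPM. Its log2 change was 1.24 in *w1118* and 2.36 in the mutants, and the hypoxia libraries of the genotypes overlapped. BomS4 had mutant hypoxia values of 1132, 2126, 912 and 462 TPM against 1014, 736, 489 and 645 TPM in *w1118* hypoxia. Library 4 of the mutant hypoxia group was the lowest of its group for all 7 peptide genes. BomBc2 overlaps BomS4 on the opposite strand by 88 bases. It went from 133, 102 and 126 TPM to 657, 610, 448 and 814 TPM in *w1118*, and from 226, 254, 154 and 205 TPM to 915, 1077, 919 and 748 TPM in the mutants.

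BaraA1 went from 79.1, 78.3 and 89.2 TPM to 470, 538, 230 and 570 TPM in *w1118*, and from 62.8, 87.7, 41.7 and 45.5 TPM to 373, 322, 438 and 206 TPM in the mutants. The log2 changes, 2.45 and 2.47, were nearly the same size. Its near-identical copy BaraA2, listed as *IMPPP*, stood at 20.7 ± 8.46 TPM (SD, n = 3) and 109 ± 27.6 TPM (n = 4) in *w1118*, and since the copies can share reads their separate levels are uncertain. Mtkl varied widely in hypoxia, at 110, 170, 59.6 and 33.5 TPM in *w1118* and at 116, 176, 162 and 49.4 TPM in the mutants. Its normoxia levels stayed between 14.2 and 16.3 TPM in *w1118* and between 9.77 and 23.0 TPM in the mutants.

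The Bomanin genes were looked at as a family after the members were known. Of 12 Bomanin genes in the reference, 10 lie in one cluster on arm 2R (dm6, 18381393 to 18390629), and the 5 members span 6063 bases of it. A further 4 met the thresholds under names of their own, listed as *IM1*, *IM2*, *IM3* and *IM23*. The 3 that did not meet them were BomT1 (CG43202) at the end of the cluster and the 2 genes on arm 3R, BomT3 (CG5778) and BomBc3 (CG5791). BomT1 in *w1118* had 2.61 ± 0.509 TPM in normoxia and 5.50 ± 2.29 TPM in hypoxia (SD, n = 3 and 4), and its libraries overlapped in both genotypes. BomT3 stood at 130 ± 30.6 and 251 ± 132 TPM in *w1118* and at 181 ± 23.5 and 233 ± 57.6 TPM in the mutants. BaraC (CG30285), a more distant relative of BaraA1, stood at 11.0 ± 1.43 and 11.4 ± 2.35 TPM in *w1118* and at 21.0 ± 1.71 and 15.8 ± 4.34 TPM in the mutants.

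**Figure D3:**
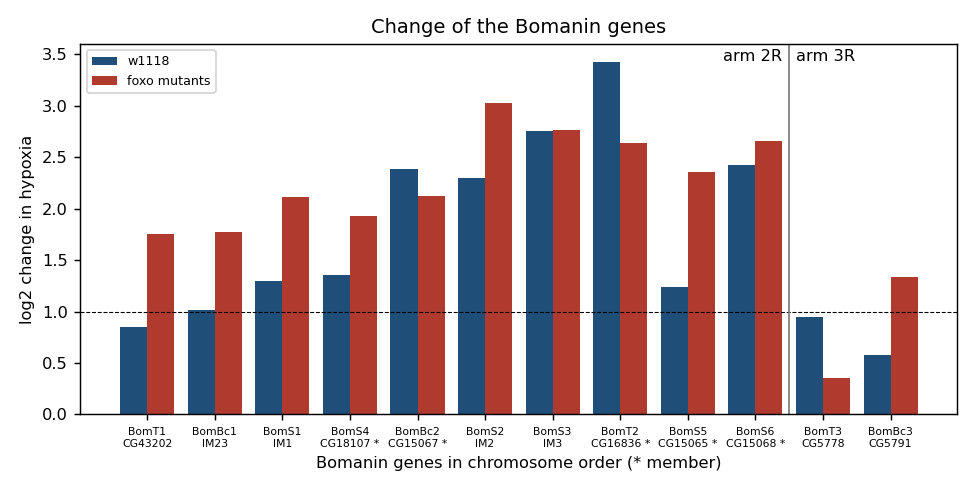
Log2 change in hypoxia of the 12 Bomanin genes in chromosome order, as the difference of log2(mean TPM + 1), in *w1118* (blue bars) and *foxo* mutants (red bars), with members marked by a star and the threshold of 1 dashed. The highest bar is BomT2 in *w1118* (3.43), and the genes on arm 3R have 0.95 and 0.57 in *w1118* and 0.36 and 1.34 in the mutants.

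Genes of lipid and glycerol metabolism formed the next group, with a median change over the 4 genes described of 2.03 (log2) in *w1118* flies and 1.76 in the mutants. Acbp6 (CG15829), an acyl-CoA binding protein, had the widest spread in normoxia, at 126, 33.6 and 24.6 TPM in *w1118* and at 52.0, 158, 62.9 and 51.3 TPM in the mutants. In hypoxia it stood at 290, 413, 158 and 549 TPM in *w1118* and at 263, 226, 342 and 253 TPM in the mutants. Library 2 of each normoxia group was the high one. CG5966, a triglyceride lipase by family, went from 11.8, 12.9 and 17.5 TPM to 60.4, 109, 67.0 and 85.4 TPM in *w1118*. Mutant libraries went from 14.2, 18.3, 17.9 and 13.7 TPM to 58.7, 19.5, 91.5 and 62.5 TPM, where library 2 stood only just above the highest normoxia library.

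CG1774, an acyl-CoA thioesterase by family, had normoxia and hypoxia means of 18.6 ± 2.07 and 59.5 ± 11.0 TPM in *w1118*, and of 21.7 ± 2.26 and 52.7 ± 7.35 TPM in the mutants (SD, n = 3 for *w1118* normoxia and n = 4 for the others). Gpo2 (CG2137), a paralog of the mitochondrial glycerol-3-phosphate oxidase, was nearly silent in normoxia, at 0.083, 0.043 and 0.075 TPM in *w1118* and at 0.156, 0.112, 0.134 and 0.096 TPM in the mutants. In hypoxia it reached 2.92, 2.38, 1.43 and 2.23 TPM in *w1118* and 3.85, 4.53, 4.18 and 2.86 TPM in the mutants. The hypoxia means were 33.4 and 31.0 times those in normoxia, ratios that the added 1 TPM lowers to log2 changes of 1.60 and 2.11. Exons of Gpo2 overlap those of *Cyt-b5* on the same strand, and the way reads of that stretch were divided was not tested.

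Among redox and mitochondrial genes, CG12896 had the largest change of all members in *w1118*. This gene encodes a peroxiredoxin, an enzyme family that removes peroxides. It went from 17.0, 9.40 and 14.7 TPM to 153, 240, 138 and 313 TPM, 15.4 times the normoxia mean. In the mutants it went from 10.6, 17.0, 13.0 and 9.84 TPM to 96.3, 59.0, 88.5 and 90.9 TPM, 6.64 times the mean. The hypoxia libraries of the genotypes did not overlap, while those in normoxia did. CG11825, a small mitochondrial protein with a HIG1 hypoxia-induced domain, lies 3229 bases from CG12896 on the same strand of arm 2R, with 1 coding gene between. It went from 46.5, 45.8 and 45.1 TPM to 116, 117, 99.8 and 112 TPM in *w1118*, and from 24.1, 26.1, 29.9 and 33.0 TPM to 63.0, 46.9, 85.1 and 91.9 TPM in the mutants. Every mutant library lay below every *w1118* library of its condition. CG3842, a short-chain dehydrogenase, had log2 changes of 1.13 and 1.45, and CG9521, a GMC family oxidoreductase, 1.06 and 1.53.

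CG16898 and CG33301 carry the paired names Dro26-1 and Dro26-2 in the reference, which come from the ecdysteroid kinase-like family. They lie on different arms, 2R and 2L, and have coding sequences of the same length, 1221 bases. CG16898 went from 3.09, 1.61 and 2.22 TPM to 11.5, 29.3, 7.98 and 24.0 TPM in *w1118*. The mutants went from 5.25, 8.27, 4.42 and 4.62 TPM to 76.9, 73.0, 74.5 and 67.2 TPM, 12.9 times the normoxia mean and with little spread. CG33301 went from 3.17, 2.84 and 5.08 TPM to 15.3, 23.9, 8.00 and 23.0 TPM in *w1118*, and from 13.8, 17.5, 13.8 and 16.1 TPM to 45.2, 37.4, 36.8 and 44.8 TPM in the mutants. In *w1118* hypoxia libraries 2 and 4 were high and 1 and 3 low for both genes, and the mutant libraries lay above all *w1118* libraries of their condition for both.

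Among secreted proteins by family, CG7142, a serine protease, went from 1.20, 0.691 and 1.39 TPM to 4.28, 6.14, 4.17 and 6.99 TPM in *w1118*. Mutant libraries went from 1.66, 2.58, 2.04 and 1.37 TPM to 24.8, 15.7, 24.7 and 20.5 TPM. The hypoxia libraries of the genotypes lay far apart and those in normoxia overlapped. CG9733, a serine protease with a clip domain, went from 0.472 ± 0.046 to 3.95 ± 1.45 TPM in *w1118* and from 0.948 ± 0.115 to 8.14 ± 2.14 TPM in the mutants. CG5550, a fibrinogen-related protein, went from 10.2, 7.46 and 9.21 TPM to 69.7, 88.4, 21.6 and 73.1 TPM in *w1118*, and from 20.8, 35.7, 15.5 and 14.8 TPM to 115, 92.8, 144 and 108 TPM in the mutants. *w1118* hypoxia 3 was again the low library.

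The remaining members with a known role belong to different processes. Dph1 (CG11652) starts the synthesis of diphthamide, a modified residue of translation elongation factor 2, and went from 83.2, 94.6 and 84.7 TPM to 344, 377, 232 and 412 TPM in *w1118*. In the mutants it went from 23.1, 27.3, 29.7 and 26.1 TPM to 81.2, 61.7, 88.9 and 94.5 TPM, so that the mutant hypoxia libraries reached about the level of *w1118* normoxia. CG16758, a purine nucleoside phosphorylase, went from 108, 63.0 and 81.9 TPM to 286, 348, 230 and 396 TPM in *w1118*. The mutants went from 11.0, 13.3, 9.96 and 8.18 TPM to 48.9, 54.4, 65.3 and 37.9 TPM. CG7130, a DnaJ domain cochaperone, went from 14.7 ± 0.471 to 44.6 ± 4.26 TPM in *w1118* and from 10.9 ± 2.12 to 55.8 ± 14.4 TPM in the mutants. CG9067, a subunit of the TRAPP vesicle tethering complex by family, had log2 changes of 1.22 and 1.38. CG8908, a lipid transporter-like protein of the ABCA family, had 1.57 and 1.66, and CG2017, a GTPBP1-like GTP-binding protein, had 1.23 and 1.02.

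Members without a role given here included some of the largest changes. CG45061 lies on the X chromosome and has a coding sequence of 228 bases. It went from 2.15, 1.15 and 1.61 TPM to 10.5, 21.5, 10.1 and 23.5 TPM in *w1118*, and from 0.860, 2.25, 1.86 and 1.13 TPM to 30.9, 21.5, 39.1 and 43.1 TPM in the mutants. This was 22.1 times the normoxia mean in the mutants, and library 2 of the mutant hypoxia group fell within the *w1118* range. CG16978, with a coding sequence of 288 bases, went from 11.8, 10.6 and 12.9 TPM to 44.0, 39.0, 25.8 and 26.3 TPM in *w1118*. Mutant libraries went from 16.2, 13.0, 11.0 and 10.9 TPM to 111, 123, 147 and 87.2 TPM, with no overlap between the genotypes in hypoxia.

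CG13905, now named *mat*, went from 33.6, 37.6 and 41.2 TPM to 203, 260, 217 and 227 TPM in *w1118*, and from 8.07, 17.5, 3.98 and 4.52 TPM to 42.0, 37.3, 43.8 and 44.6 TPM in the mutants. As for Dph1, mutant hypoxia levels were close to those of *w1118* normoxia. CG14566 was at 0.071, 0.045 and 0.046 TPM in *w1118* normoxia and at 0.911, 1.43, 2.05 and 1.95 TPM in mutant normoxia. In hypoxia it reached 1.83, 2.30, 1.71 and 2.06 TPM in *w1118* and 7.11, 5.13, 4.89 and 4.22 TPM in the mutants. CG13321 and CG44251, which lie 818 bases apart on opposite strands of arm 2R, had similar log2 changes in *w1118* (1.40 and 1.49) and in the mutants (1.48 and 1.71). CG13321 went from 275, 157 and 149 TPM to 536, 547, 378 and 592 TPM in *w1118*, and for both genes library 2 was the highest of each normoxia group.

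**Figure D4:**
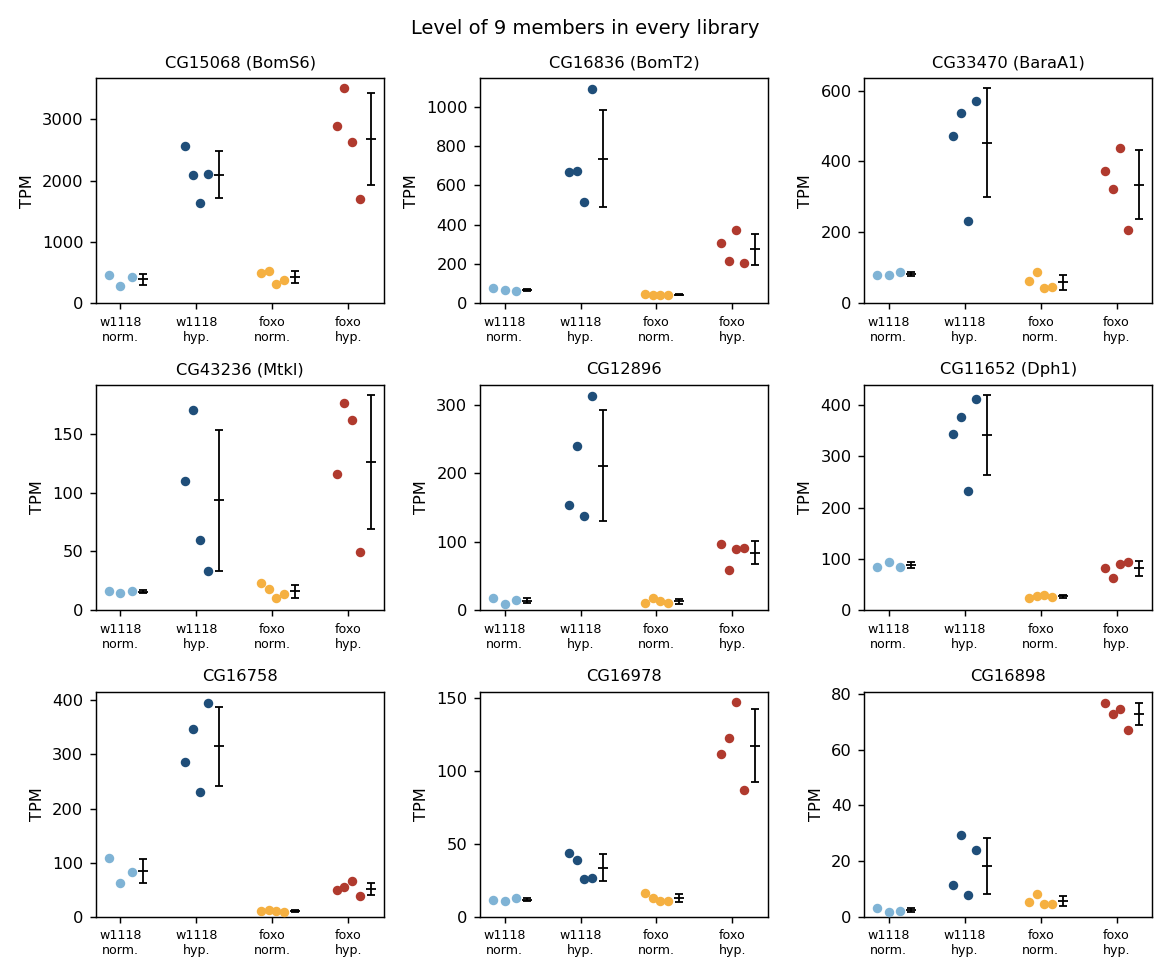
TPM of 9 members in every library of the 4 groups (points), with the mean and SD of each group beside them (n = 3 for *w1118* normoxia, n = 4 for the others) and axes that start at 0. BomS6, BaraA1 and Mtkl overlap between the genotypes in hypoxia, BomT2, CG12896, Dph1 and CG16758 are lower in every mutant hypoxia library, and CG16978 and CG16898 are higher.

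The size of the change was compared between the genotypes as a description, since both changes entered the rule. The log2 change was larger in the mutants for 37 members and larger in *w1118* for 19, and for 38 members the changes differed by less than 0.5. The identical pair CG2217 and CG42740 counts as 2 of the 37 and as 2 of the 38. Shares of all genes for these counts are not given here. The difference exceeded 1 for 6 members. CG16978 (1.65), CG7142 (1.33), BomS5 (1.12), CG45061 (1.06) and CG4269 (1.04) had the larger change in the mutants, and CG12896 (-1.21) in *w1118*. Changes of 2 or more in both genotypes were found for 12 members, with CG2217 and CG42740 counted as 2 of them. In hypoxia 13 members had means over 100 TPM in both genotypes, while 7 were under 1 TPM in normoxia in both.

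The genotypes were then compared within each condition with limma on log2(TPM + 1), with Benjamini-Hochberg adjustment over the 10288 genes, at an adjusted p under 0.05 and more than 1.5-fold. The rule compared no mutant library with a *w1118* library, but the levels it used are the ones compared here. Counts within one condition are thus not free of the choice of members. The rule also asked for separate groups, which the background genes need not have. In normoxia 5 members (background 5.14% of all genes tested) were higher and 5 (background 2.84%) were lower in the mutants. In hypoxia 17 (background 6.91%), or 30.4% of the members, were higher and 7 (background 7.34%), or 12.5%, were lower. Over both conditions together 14 (background 7.22%) were higher and 7 (background 5.14%) were lower, or 25.0% and 12.5%. CG2217 and CG42740, which share their values, count as 2 of the 17 and as 2 of the 14. The comparison over both conditions is least touched by the choice of members by their change. The demand for separate groups bears on it too, and its part in these counts was not tested. The median difference in hypoxia was 0.31 for the members and -0.22 for all genes. Over both conditions it was 0.14 and -0.08.

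Scaling the libraries by the median of ratios moved the median of all genes in hypoxia from -0.22 to 0.002, and the split of all genes called from 711 higher and 755 lower to 1000 and 449. With that scaling 23 members were higher and 5 lower in hypoxia. The count of 17 higher members fell to 9 without mutant hypoxia 3 and to 9 without *w1118* hypoxia 3. In normoxia the count of 5 higher members was 2 without mutant normoxia 1, 2 without mutant normoxia 2, and 3 without *w1118* normoxia 2 or 3. The count of 5 lower members was 3 without mutant normoxia 1 or 3 or *w1118* normoxia 3. Whether the strains share a genetic background is not given in the sources used here, so the lack of *foxo* and other differences between the strains cannot be told apart.

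The 2 largest differences, of CG16758 and CG13905, were toward lower levels in the mutants and were present in normoxia already, as was that of Dph1. CG16758 differed by a log2 value of -2.86 (SE 0.23, limma adjusted p = 1.1e-06) in normoxia and -2.58 (SE 0.22, adjusted p = 5.9e-07) in hypoxia. CG13905 differed by -2.22 (SE 0.32, limma adjusted p = 0.00032) and -2.41 (SE 0.30, adjusted p = 2.9e-05). Dph1 differed by -1.69 (SE 0.19, limma adjusted p = 2.4e-05) and -2.04 (SE 0.17, adjusted p = 6.7e-07). All 3 genes lie on arm 3L, at different places, and each hypoxia change remained over 1.5 on the log2 scale in both genotypes. CG11825 and CG4570, which has no role given here, were lower in both conditions by smaller amounts, between -0.67 and -0.90. These calls ended under some settings. The limma adjusted p of CG11825 reached 0.12 in normoxia (0.054 with a replicate block) and 0.082 in hypoxia, and that of CG4570 reached 0.15 in normoxia and 0.10 in hypoxia after median-of-ratios scaling.

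CG12896 and BomT2 passed the test as lower in the mutants in hypoxia and not in normoxia. CG12896 differed by -1.27 in hypoxia (SE 0.27, limma adjusted p = 0.0032) and by -0.10 in normoxia (adjusted p = 0.90). BomT2 differed by -1.42 in hypoxia (SE 0.22, limma adjusted p = 0.00022) and by -0.63 in normoxia (adjusted p = 0.12). Whether these differences are unequal between the conditions was not tested, because that contrast is made of the changes in the rule.

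Higher levels in the mutants in both conditions were found for CG33301, CG14566, CG13965 and CG3348. CG33301 differed by 1.82 in normoxia (SE 0.29, limma adjusted p = 0.00074) and 1.28 in hypoxia (SE 0.27, adjusted p = 0.0031). CG14566 differed by 1.27 and 1.08, CG13965 by 0.94 and 1.67, and CG3348 by 0.93 and 1.43. CG3348 was at 45.7, 84.3 and 90.8 TPM in *w1118* normoxia and at 149, 146, 122 and 128 TPM in mutant normoxia, with no overlap. Leaving out single libraries or changing a setting ended the call of CG13965 and CG3348 in normoxia, where the adjusted p reached 0.13 for each. The difference of CG14566, a gene of low level, was under 1.5-fold in every comparison at a pseudocount of 5 (0.38 in normoxia and 0.56 in hypoxia), and its normoxia value was 3.39 at a pseudocount of 0.1.

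The other large differences were found in hypoxia. CG16898, the relative of CG33301, differed by 2.11 (SE 0.32, limma adjusted p = 0.00020) and had 1.00 in normoxia (adjusted p = 0.094). CG7142 differed by 1.81 (SE 0.21, limma adjusted p = 1.4e-05) and CG16978 by 1.78 (SE 0.20, adjusted p = 1.4e-05). CG9733 differed by 0.90 (SE 0.21, limma adjusted p = 0.0058), with an adjusted p of 0.067 when only the libraries compared were fitted and a difference of 0.55, under 1.5-fold, at a pseudocount of 5. BomBc2 was the only one of the 7 peptide genes that passed as higher in the mutants in normoxia, by 0.78 (SE 0.20, limma adjusted p = 0.022), with an adjusted p of up to 0.13 under other settings. BomS5 was higher in hypoxia by 0.87 (SE 0.25, limma adjusted p = 0.026), with an adjusted p of up to 0.093. For BomS6, BomS4, BaraA1 and Mtkl the genotypes did not pass the test in either condition. In all, 26 members passed in some comparison, and of the 9 that passed in both conditions all 9 had the same direction in each. The shares of all genes that did so are not given here, so these counts describe the members alone.

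**Figure D5:**
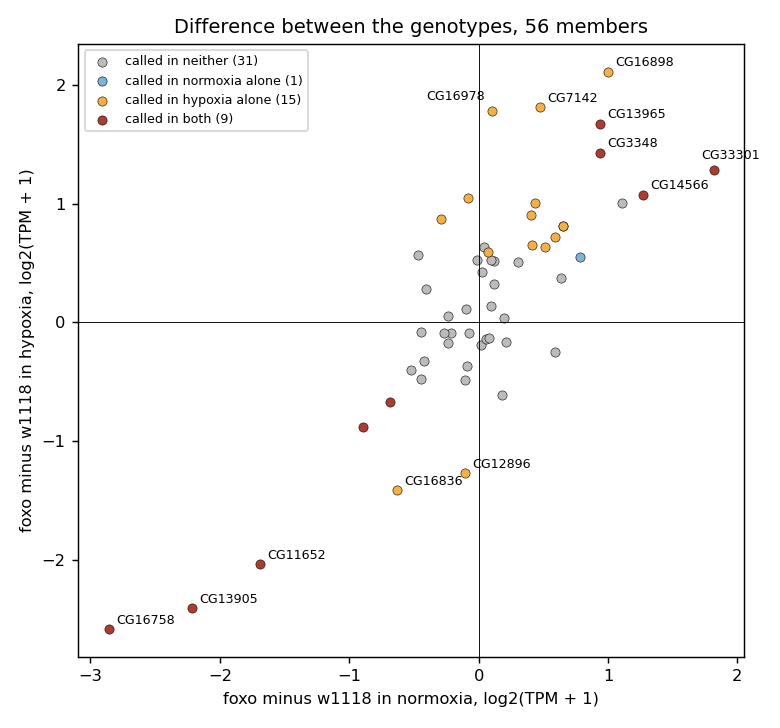
Difference between the genotypes (*foxo* minus *w1118*, log2(TPM + 1), limma) in normoxia (horizontal axis) and in hypoxia (vertical axis) for the 56 members, colored by the condition in which it passed the threshold. 31 members passed in neither condition, 15 in hypoxia alone, 1 in normoxia alone and 9 in both, with CG16758, CG13905 and CG11652 at the lower left. The matching shares of all genes are not given here.

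Most members have one transcript in the annotation (30 of 56). Of the 26 with more, 10 kept a leading transcript that held over 90% of the gene in every group. In 4 the transcript with the highest mean share in hypoxia was not that in normoxia. This held for 3 in *w1118* (CG1774, CG33301 and CG14566) and for 1 in the mutants (CG2017). The hypoxia leader of CG1774 held 52.7%, 34.9% and 54.0% of the gene in *w1118* normoxia libraries 2 to 4. The other transcript of CG1774 thus led in normoxia library 3 alone. CG14566 had a mean of only 0.054 TPM in *w1118* normoxia, so its shares there are uncertain. The shares below were picked after the values were seen and are given without a test. CG32369 has 2 transcripts in the values. The minor one was listed at 0 TPM in all normoxia libraries and at 3.88, 10.6, 2.03 and 8.63 TPM in *w1118* hypoxia. In mutant hypoxia it was at 1.25, 0.288, 0 and 0 TPM, although the main transcript stood at 12.5, 10.7, 16.5 and 14.9 TPM there against 6.91, 13.8, 7.57 and 12.7 TPM in *w1118* hypoxia. The summed level of CG32369 thus came from unequal transcripts in the genotypes, at 21.1% to 43.4% for the minor one in *w1118* and at most 9.04% in the mutants.

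In CG2017 one transcript went from 24.8% ± 6.95 (SD, n = 3) to 40.8% ± 4.93 (n = 4) of the gene in *w1118* and from 21.8% ± 6.73 to 52.3% ± 6.62 in the mutants (n = 4 each). In CG1774 one went from 47.2% ± 10.7 to 69.5% ± 8.16 in *w1118* and from 59.4% ± 4.85 to 77.9% ± 9.54 in the mutants. In Dph1 the main transcript went from 80.8% ± 0.044 to 68.5% ± 1.83 in *w1118* and from 88.1% ± 2.49 to 77.4% ± 2.85 in the mutants. These shares moved the same way in both genotypes. Each is a share that the authors' program estimated from reads that transcripts of a gene have in common.

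In properties that the rule did not use, the members had shorter coding sequences in the median than the CG-numbered genes at large and were spread unevenly over the chromosomes, which is a description without a test. The median coding length was 765 bases for the members, 1107 bases for the 4150 CG-numbered genes tested and 997.5 bases for the 222 that met the mirrored thresholds. Coding sequences of at most 300 bases were found in 10 members (17.9%), among them 5 of the peptide genes, against 6.75% of CG-numbered genes tested. The 10 include CG42740 (153 bases), whose values are identical with those of CG2217 (1092 bases). Arm 2R held 22 members (39.3%) against 19.4% of CG-numbered genes tested, and all 7 immune peptide genes lie on it. The X chromosome held 4 (7.14%) against 17.4%, and arm 3R 9 (16.1%) against 25.5%, with CG2217 and CG42740 counted under both names. Arm 2L held 10 (17.9%) against 17.8%, arm 3L 11 (19.6%) against 19.4%, and the fourth chromosome 0 against 0.361%. Neighbours on arm 2R share position and are not independent of each other. Exons of 15 members overlap a gene on the opposite strand, and those of 4 a gene on the same strand.

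Single libraries moved many members together. *w1118* hypoxia 3 was the lowest of its group for 40 of the 55 members with separate values, with a median deviation of -0.35 from the group on the log2 scale. Mutant normoxia 2 was the highest of its group for 36, with a median deviation of 0.19. Mutant hypoxia 2 was the lowest for 28 and mutant hypoxia 4 for 23, with median deviations of -0.26 and -0.08. The number of genes that met the rule was 63 without *w1118* hypoxia 3, of which 55 were members, and 63 without mutant normoxia 2, of which 56 were.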

How the data were processed

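The authors prepared directional poly-A libraries from whole-body RNA, quantified them with kallisto against RefSeq mRNA (genome build dm6) and used sleuth for their own tests, with versions not given in the sources read. The deposited values are TPM per transcript, scaled by the authors to one total per library. They keep no depth, so precision rests on the spread between the replicates, which the study calls independent. The authors' tables of hypoxia-regulated genes hold their own p-values, effect sizes and folds, and were not used. Here TPM were summed per gene (34111 transcripts, 17117 genes). Genes with a mean of 1 TPM in some group were fitted as log2(TPM + 1) with limma 3.58.1 in R 4.3.3, in one model of 4 groups with a variance trend, and the procedure was tested on simulated data. Annotation and coordinates come from Ensembl and RefSeq tables of dm6. The rank rule for named members took the highest hypoxia levels, the largest changes, the largest genotype differences and unequal changes, the genes next to the threshold, and neighbouring members. The members, lists and tests were chosen with earlier results of these data known, and role groups and transcript shares after the values were seen. Alternatives were other pseudocounts, filters, scaling, a replicate block, fewer libraries and other settings of the rule. Promoter motifs and protein sequences were not analysed here. The reads of overlapping genes and near-identical copies are divided by estimation. A marker list for male tissue held 7 names, of which 6 were found. 1 member is named neither in the text nor in a figure and is included in the counts over all 56. Replicate numbers were checked for pairing by correlating deviations from the group means. Within *w1118*, the normoxia and hypoxia libraries of one number deviated together (correlations of 0.142 to 0.374 over 3 pairs). They were taken as pairs from the values alone, since no source states what a number marks. No fit modeled these pairs by themselves. Within the mutants these correlations ran from -0.071 to 0.331 over 4 pairs, and not every library correlated best with its own number. Across genotypes and conditions, *w1118* hypoxia 1 and mutant normoxia 1 reached 0.393.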

Additional observations from a re-analysis of the deposited data

Results flagged for a closer look

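Acbp6 (CG15829) in library 2 of the mutant normoxia group stood at 158 TPM, while the other 3 libraries of that group lay between 51.3 and 62.9 TPM. It was set apart because its gap to the nearest library was 0.891 of the range of the group. Among the 31 named members with values of their own, 93 groups of 4 libraries were examined and 1 held such a library, where about 1 in 20 would be reached by chance.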

How the results depend on the processing

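With the rule changed, 90 genes met it at a pseudocount of 0.1, 147 at a minimum of 1.5-fold and 12 at a log2 change of 2. It was met by 46 genes (45 of them members) after median-of-ratios scaling, 40 at a pseudocount of 5, 68 without the demand for separate groups, 57 with the most abundant transcript alone, and 53 to 63 without one library. Of the 56 members, 34 were kept by all 19 alternatives that kept the threshold of 1. Members higher in the mutants in hypoxia (17) numbered 9 with only the libraries compared in the fit, and 9 to 19 without one library, those lower 6 to 7. In normoxia the higher ones (5) numbered 9 with only the libraries compared, 3 after median-of-ratios scaling, 3 at a pseudocount of 5, and 2 to 7 without one library, and the lower ones 3 to 5. Over both conditions the counts were 13 to 16 and 6 to 8 without one library. Replicate numbers did not pair the genotypes, since correlations of same-numbered deviations ran from -0.119 to 0.169 in normoxia and from -0.216 to 0.347 in hypoxia, and not every library correlated best with its own number. When the fit held a block for the replicate number, 4 and 4 members were higher and lower in normoxia, 17 and 7 in hypoxia, and 14 and 7 over both conditions. The comparison over both conditions treats the paired *w1118* libraries as separate. The block joins same-numbered libraries of both genotypes, so it cannot show the effect of pairs within *w1118* alone, which was not tested. It ended 0 single-gene calls over both conditions and 3 in normoxia (CG11825, CG13965 and CG3348). Of 1187 alternative values for single genes between the genotypes, 98 no longer passed the threshold and 0 reversed. The cause of these shifts was not tested. The depth that limits low members such as Gpo2 and CG14566 is unknown.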
